A study of Homo sapiens with 12 samples.

Results

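The 10 genes described here encode 8 receptors of the tumour necrosis factor (TNF) receptor family and a pair of initiator caspases. They are TNFRSF13B, TNFRSF13C, TNFRSF17, CD40, CD27, FAS, TNFRSF10B, TNFRSF1B, CASP8 and CASP10. They were chosen by symbol through their Ensembl identifiers and make up 10 of the 60483 genes in the deposited count table. Of the 10, 9 passed a filter on low counts and are among the 14412 genes tested; CD27 did not pass.

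All libraries were made from 1 cell line, REC1, which is established from a human mantle cell lymphoma. Cells were exposed to DMSO (the solvent control), to ibrutinib, to SPX5551 (pol5551 in the column headers) or to the combination of ibrutinib and SPX5551, and RNA was sequenced at 4, 8 and 12 h with 1 library for each treatment and time. Ibrutinib binds and blocks BTK, a kinase downstream of the B-cell receptor, and SPX5551 is presented in the series title as acting on the chemokine receptor CXCR4. The sources used here give no doses, and the labels name no separate cultures, so every p-value measures only the spread between these 12 libraries, with the 3 times standing in as replicates of a treatment.

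Receptors of the TNF family carry ligand signals along separate routes. CD40, the BAFF receptor TNFRSF13C, TACI (TNFRSF13B), BCMA (TNFRSF17), CD27 and TNFRSF1B recruit TRAF proteins and lead to NF-kappaB, which in B cells supports survival and activation. FAS and TNFRSF10B (DR5) carry a death domain that recruits FADD, which in turn gathers caspase-8 and caspase-10, the proteases that start extrinsic apoptosis.

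Promoter sequence is shown for 3 of the genes: TNFRSF1B, which passed in several treatment comparisons, and CASP8 and TNFRSF13B, which passed in none of them. Each run is the 250 bases before the RefSeq start of the gene (GRCh38.p14), read 5′ to 3′ on the gene's strand, in lower case. Capitals mark every match to GGG, any 5 bases and CC, a loose form of the NF-kappaB site, on either strand, and overlapping matches run together.
TNFRSF1B (chr1:12166741-12166990, + strand): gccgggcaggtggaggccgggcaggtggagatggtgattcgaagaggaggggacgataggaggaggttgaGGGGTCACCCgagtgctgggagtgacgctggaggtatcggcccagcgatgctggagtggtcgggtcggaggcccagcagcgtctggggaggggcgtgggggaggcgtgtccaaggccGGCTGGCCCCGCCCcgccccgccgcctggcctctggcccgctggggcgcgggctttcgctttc
CASP8 (chr2:201233213-201233462, + strand): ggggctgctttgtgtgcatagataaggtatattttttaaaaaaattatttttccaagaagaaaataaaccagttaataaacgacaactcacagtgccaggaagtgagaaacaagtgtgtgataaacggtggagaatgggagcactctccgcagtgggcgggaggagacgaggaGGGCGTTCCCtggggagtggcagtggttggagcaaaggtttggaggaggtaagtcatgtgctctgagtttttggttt
TNFRSF13B (chr17:16972119-16972368, - strand): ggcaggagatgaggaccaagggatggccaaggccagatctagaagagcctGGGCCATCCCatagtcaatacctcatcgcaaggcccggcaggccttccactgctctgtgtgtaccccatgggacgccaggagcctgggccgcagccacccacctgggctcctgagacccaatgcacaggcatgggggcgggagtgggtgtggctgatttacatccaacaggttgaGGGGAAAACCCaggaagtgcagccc
TNFRSF1B held 3 matches, of which the first starts 180 and the last 59 bases before the start. CASP8 held 1 match, 77 bases before the start. TNFRSF13B held 3, of which the first starts 200 and the last 24 bases before the start. RefSeq windows were found for 5 of the 10 genes, and each of the 5 held the motif in at least 1 window, beside 57.8% of the 27305 genes searched. Counted by window, 7 of their 9 windows held it, beside 54.4% of all 35116 windows. The motif therefore sat in the promoter of a gene that fell and of genes that did not pass, and a match is a description of letters, not of binding.

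The labels disagree on which column belongs to which treatment. Titles, treatment labels and column headers go together, and all values here follow them. The free-text descriptions instead assign the headers combination, DMSO, ibrutinib and SPX5551 to the samples labelled DMSO, ibrutinib, SPX5551 and combination, at each time. With that assignment, the combination versus DMSO becomes the SPX5551 versus combination contrast of the headers: CD40 would be 0.54 higher, TNFRSF1B 0.42 higher and CASP10 at -0.51 on the log2 scale (adjusted p = 0.0150, 0.0243 and 0.0555, edgeR). Ibrutinib versus DMSO would then be the reverse of the combination result given here, with CD40 at 0.61, TNFRSF1B at 0.66 and CASP10 at -0.95 (adjusted p = 0.00591, 0.00129 and 0.00216, edgeR).

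The libraries held 19336303 to 28934030 counts. The 6 B-cell markers summed to 2404 to 3470 CPM (counts per 1000000 counts of a library) and the cyclin gene CCND1, the driver of mantle cell lymphoma, had 1390 to 1711 CPM. CD5, a usual surface marker of that lymphoma, had at most 0.652 CPM and did not pass the filter. Sums over the markers of other cell types were 6.62 to 10.7 CPM for 6 T cell genes, 1.02 to 2.18 CPM for 6 myeloid genes and 27.6 to 55.5 CPM for 6 stromal and epithelial genes, most of it PECAM1 (18.5 to 44.7 CPM, highest in the 12 h combination library). Those of 5 plasma cell genes summed to 142 to 240 CPM, most of it IRF4 and MZB1, which B cells also express. Among these markers of other cell types, IRF4 (-0.81, adjusted p = 0.000173, edgeR) and TRAC (-1.72, adjusted p = 0.0140, edgeR; 0.138 to 1.61 CPM) were lower in the combination versus DMSO, where CD40 and TNFRSF1B were also lower. Their part in the results was not tested. Across genes, Spearman's rho between transcript length and the deviation of a gene's log2 CPM from its own average was positive in all 3 ibrutinib libraries (0.17 to 0.41) and negative in all 3 SPX5551 libraries (-0.40 to -0.20). It had mixed signs in DMSO and in the combination. The results on CD40, TNFRSF1B and CASP10 are therefore also given with this trend removed. In bulk RNA, fewer cells with a transcript and less of it per cell cannot be told apart.

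Levels of the 10 genes spanned a wide range. On the scale of CPM per kilobase of exon sequence, the medians over the 12 libraries were 67.9 for TNFRSF13B, 36.8 for CD40, 16.0 for TNFRSF13C, 8.40 for TNFRSF1B, 7.29 for CASP8 and 3.02 for TNFRSF10B. FAS followed at 1.21, CASP10 at 1.17, TNFRSF17 at 1.13 and CD27 at 0.137. TACI was thus the most abundant transcript of the set per kilobase and CD27 the least. Ranges over the libraries overlapped between TNFRSF13B and CD40, from TNFRSF13C through TNFRSF1B to CASP8, and between FAS, CASP10 and TNFRSF17. They did not overlap between CD40 (25.3 to 65.2) and TNFRSF13C (10.6 to 17.5), between CASP8 (6.17 to 9.66) and TNFRSF10B (2.0 to 3.64), between TNFRSF10B and FAS (0.786 to 1.88), or between TNFRSF17 (0.507 to 1.95) and CD27 (0 to 0.261). The order depends on the transcript taken: per kilobase of its longest transcript CASP8 was at 18, above TNFRSF13C at 16.0.

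**Figure D1:**
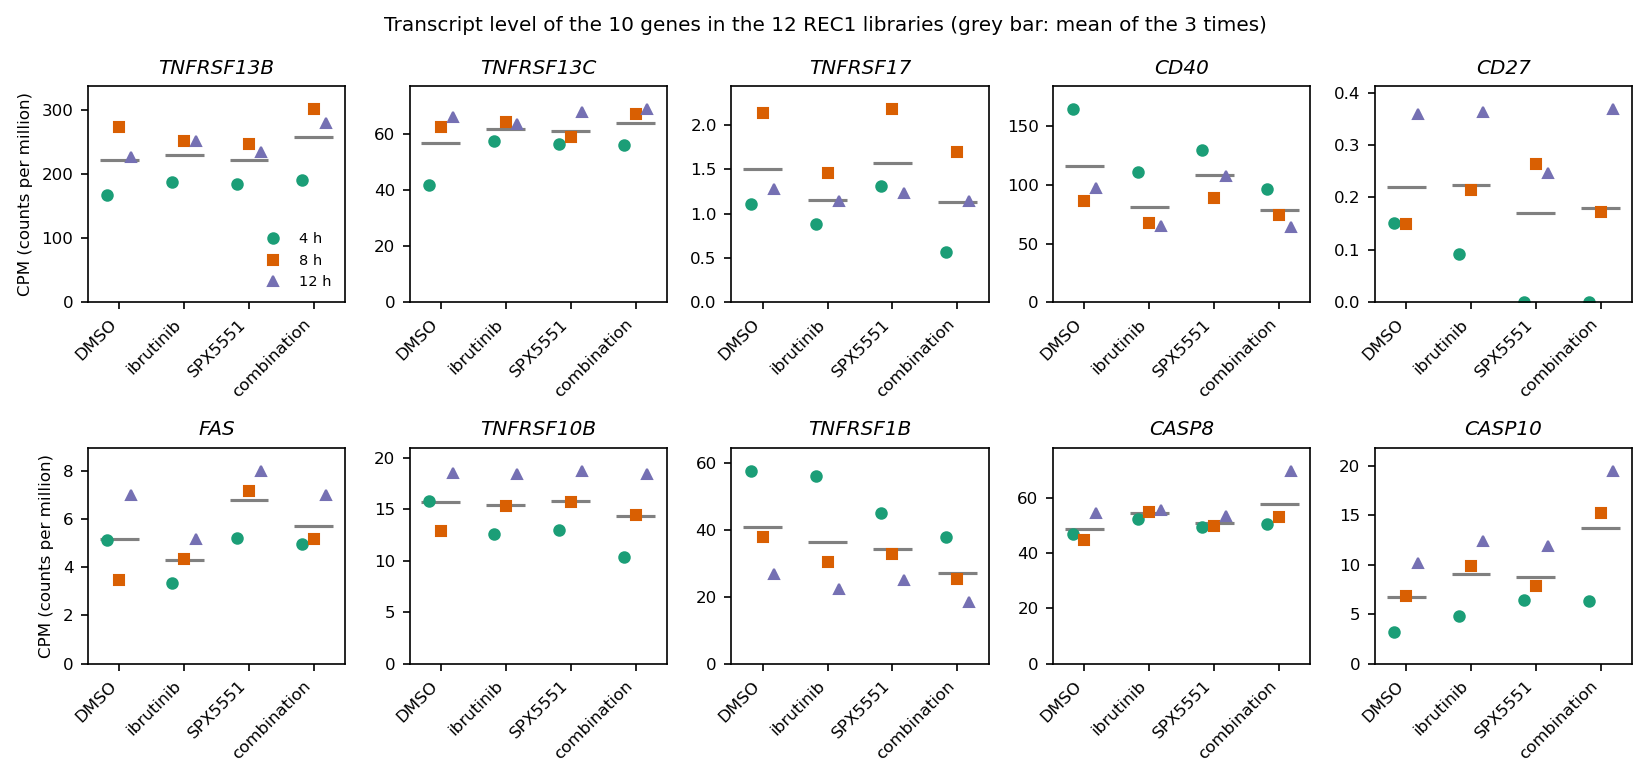
CPM (linear axes from 0) of each of the 10 genes in the 12 libraries, by treatment, with 4 h as circles, 8 h as squares and 12 h as triangles, and the mean of the 3 times as a grey bar. TNFRSF1B is highest at 4 h in each treatment and lowest in the combination at each time, CASP10 is highest in the 8 h and 12 h combination libraries, and CD27 stays under 0.4 CPM.

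In the combination versus DMSO, CASP10 rose 1.93-fold while CD40 fell to 0.655 and TNFRSF1B to 0.635 of the DMSO level. Of the 9 tested genes, 1 was higher and 2 were lower, beside 9.57% of all tested genes called in this comparison (4.16% higher and 5.41% lower). The median log2 fold change of the 9 was 0.06, beside 0.02 over all tested genes, and the other 6 did not pass. The libraries of the 2 treatments overlapped for each of the 9, while 13.1% of all tested genes had no overlap. In ibrutinib versus DMSO none of the 9 passed, beside 0.104% of all tested genes. An unadjusted p under 0.05 (edgeR) was reached by 3 of the 9 (CD40, TNFRSF1B and CASP10) and by 1588 of all 14412 genes. In SPX5551 versus DMSO none of the 9 and 0% of all tested genes passed with edgeR. Here 3 of the 9 and 1200 of all genes had an unadjusted p under 0.05, and DESeq2 and limma-voom also called none of the 9. These comparisons use the same 3 DMSO libraries, so their values stand side by side and are not independent.

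**Figure D2:**
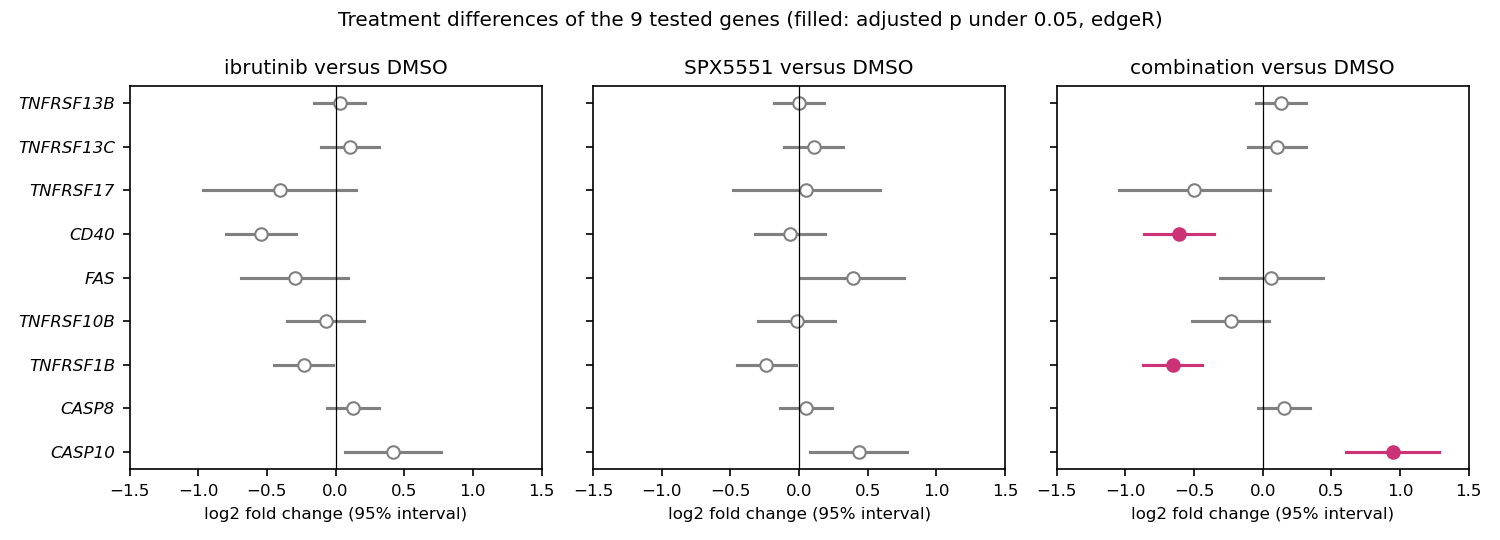
Log2 fold change (point) and 95% interval (bar) of the 9 tested genes in ibrutinib, SPX5551 and the combination, each versus DMSO, from edgeR's quasi-likelihood fit. Filled points mark an adjusted p under 0.05: CD40 (-0.61), TNFRSF1B (-0.66) and CASP10 (0.95) in the combination, and no gene in either single treatment.

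CD40, the receptor through which T cells license B cells, had the second highest level of the set. Its DMSO libraries read 165 CPM at 4 h, 86.5 at 8 h and 97.6 at 12 h, and the ibrutinib libraries 111, 67.9 and 64.7 CPM in the same order. The SPX5551 libraries read 130, 89.2 and 108 CPM, and those of the combination 96.7, 74.8 and 64.1 CPM. At each time both ibrutinib-containing libraries were below DMSO and below SPX5551, although the groups overlap when the times are pooled, since the 4 h libraries are high in every treatment. CD40 fell by 0.61 ± 0.12 in log2 units in the combination versus DMSO (SE, n = 3 times; adjusted p = 0.00591, edgeR) and by 0.54 ± 0.12 versus SPX5551 (adjusted p = 0.0150, edgeR). In ibrutinib alone the difference from DMSO had almost the same size, -0.54 ± 0.12, with an adjusted p of 0.187 in edgeR and 0.0143 in DESeq2. It passed in 6 of 26 alternatives, also in edgeR with no filter on low counts (adjusted p = 0.000222) and with only the 6 libraries compared (0.0342). The call thus depends on the tool, the filter and the libraries in the fit. Between the combination and ibrutinib the CD40 difference was -0.07, with a 95% interval from -0.32 to 0.19.

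Across the 6 libraries with ibrutinib and the 6 without, CD40 was lower by -0.54 ± 0.08 on the log2 scale (SE; adjusted p = 0.00126, edgeR), where 3 of the 9 genes passed beside 13.7% of all tested genes (7.14% higher and 6.58% lower). The corresponding difference for SPX5551 was -0.07 with a 95% interval from -0.24 to 0.11, and the interaction of the agents was 0.00 (-0.36 to 0.36). The combination's fall was smallest at 8 h: against the DMSO library of the same time, the log2 differences were -0.77, -0.21 and -0.61 at 4, 8 and 12 h. Whether the ibrutinib difference changed with time was tested across all genes, and 0% of the tested genes passed with edgeR. Without the 4 h libraries the combination versus DMSO value was -0.48 and did not pass (adjusted p = 0.111, edgeR). The fall versus SPX5551 did not pass without the 12 h SPX5551, the 4 h combination or the 12 h combination library (adjusted p = 0.0522, 0.0693 and 0.0729, edgeR), or without the 4 h or the 12 h libraries of all treatments (0.0688 and 0.0933). With the length trend removed the combination versus DMSO value was -0.64.

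TNFRSF1B encodes TNFR2, the TNF receptor that has no death domain and signals through TRAF2. Its DMSO libraries read 57.8 CPM at 4 h, 37.9 at 8 h and 26.7 at 12 h, and the ibrutinib libraries 56.3, 30.5 and 22.4 CPM in the same order. The SPX5551 libraries read 45.1, 32.8 and 25 CPM, and those of the combination 37.9, 25.3 and 18.5 CPM. The combination library was the lowest of the 4 at each time, but the 4 h combination library lay at the level of the 8 h DMSO library, so that the groups overlap. TNFRSF1B fell by 0.66 ± 0.10 in log2 units in the combination versus DMSO (SE, n = 3 times; adjusted p = 0.00129, edgeR), with log2 differences from DMSO of -0.61, -0.58 and -0.53 at 4, 8 and 12 h. It was the 1 gene of the 9 that passed in the combination versus ibrutinib (-0.42 ± 0.10, adjusted p = 0.0279, edgeR), beside 5.49% of all tested genes (3.39% lower). In the combination versus SPX5551, TNFRSF1B (-0.42 ± 0.10, adjusted p = 0.0243, edgeR) and CD40 were the 2 of 9 that passed, beside 7.24% of all tested genes (3.97% lower).

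Single-agent differences of TNFRSF1B from DMSO were close to each other, -0.23 with ibrutinib and -0.24 with SPX5551, and neither passed (adjusted p = 0.452 and 0.598, edgeR). Over 6 versus 6 libraries it was lower with ibrutinib (-0.32 ± 0.07, adjusted p = 0.0141, edgeR) and with SPX5551 (-0.33 ± 0.07, adjusted p = 0.0192, edgeR), where 2 of the 9 passed beside 7.01% of all tested genes (2.12% higher and 4.89% lower). The interaction was -0.19 with a 95% interval from -0.49 to 0.12. The fall in the combination versus DMSO passed without each library and each time, and was -0.68 with the length trend removed. The fall versus ibrutinib did not pass without the 4 h or 8 h ibrutinib library or any 1 of the 3 combination libraries (adjusted p from 0.0520 to 0.162, edgeR), nor without the 4 h or the 8 h libraries of all treatments (0.204 and 0.232). The fall versus SPX5551 did not pass without the 8 h or 12 h SPX5551 or the 4 h or 12 h combination library (adjusted p from 0.0678 to 0.0771, edgeR), nor without any 1 time (0.0651 to 0.121).

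CASP10 encodes caspase-10, an initiator caspase of death receptor complexes that mice lack. Its DMSO libraries read 3.16 CPM at 4 h, 6.85 at 8 h and 10.2 at 12 h, and the ibrutinib libraries 4.78, 9.92 and 12.4 CPM in the same order. The SPX5551 libraries read 6.49, 7.82 and 11.9 CPM, and those of the combination 6.32, 15.2 and 19.5 CPM. These values rest on 63 to 477 counts per library. The 8 h and 12 h combination libraries were above all other 10, and at 4 h the SPX5551 and combination libraries were level. DMSO was the lowest library at each time.

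CASP10 rose by 0.95 ± 0.16 in log2 units in the combination versus DMSO (SE, n = 3 times; adjusted p = 0.00216, edgeR). The log2 differences from DMSO were 0.98, 1.14 and 0.94 at 4, 8 and 12 h, and the call held without each library and each time and with the length trend removed (0.93). The single agents differed from DMSO by 0.42 ± 0.16 (ibrutinib) and 0.43 ± 0.17 (SPX5551), neither of which passed (adjusted p = 0.452 and 0.598, edgeR). The SPX5551 difference sat mostly at 4 h, with log2 differences of 1.02, 0.19 and 0.23 at 4, 8 and 12 h. The combination exceeded ibrutinib by 0.53 ± 0.15 and SPX5551 by 0.51 ± 0.16, just short of the threshold (adjusted p = 0.0572 and 0.0555, edgeR). The first passed in 6 of 26 alternatives, among them DESeq2 (adjusted p = 0.0475) and the length trend removed (0.0144, edgeR). Over all alternatives other than the assignment by the descriptions, passing or not, its value ran from 0.40 to 0.63. The second passed with no filter on low counts (adjusted p = 0.0116, edgeR), with library size as the only scaling (0.0401), and without the 4 h SPX5551 library (0.73, adjusted p = 0.00818, edgeR) or the 4 h libraries (0.75, 0.0447). Without the 8 h SPX5551 library it was 0.30 and without the 8 h libraries 0.27.

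Over 6 versus 6 libraries CASP10 was higher with ibrutinib (0.47 ± 0.11, adjusted p = 0.0157, edgeR) and with SPX5551 (0.48 ± 0.11, adjusted p = 0.0210, edgeR). The interaction was 0.09, with a 95% interval from -0.39 to 0.58, so a departure from additive log2 effects was not detected and is not bounded closely. These calls are near the threshold. The ibrutinib one did not pass without the 8 h SPX5551, 12 h SPX5551 or 12 h combination library (adjusted p from 0.0640 to 0.0656, edgeR), without the 8 h or the 12 h libraries (0.219 and 0.109), or with the 8 h ibrutinib library and the 12 h SPX5551 library both left out (0.0993). The SPX5551 one did not pass without the 12 h DMSO, any 1 of the 3 ibrutinib or the 8 h combination library (0.05003 to 0.0961, edgeR), nor without any 1 time (0.0532 to 0.171). The TNFRSF1B call for ibrutinib exposure did not pass without the 8 h or the 12 h libraries (0.126 and 0.103) or with that same pair left out (0.0516). That for SPX5551 exposure did not pass without the 4 h ibrutinib or 8 h combination library (0.0573 and 0.0630), nor without any 1 time (0.110 to 0.158).

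**Figure D3:**
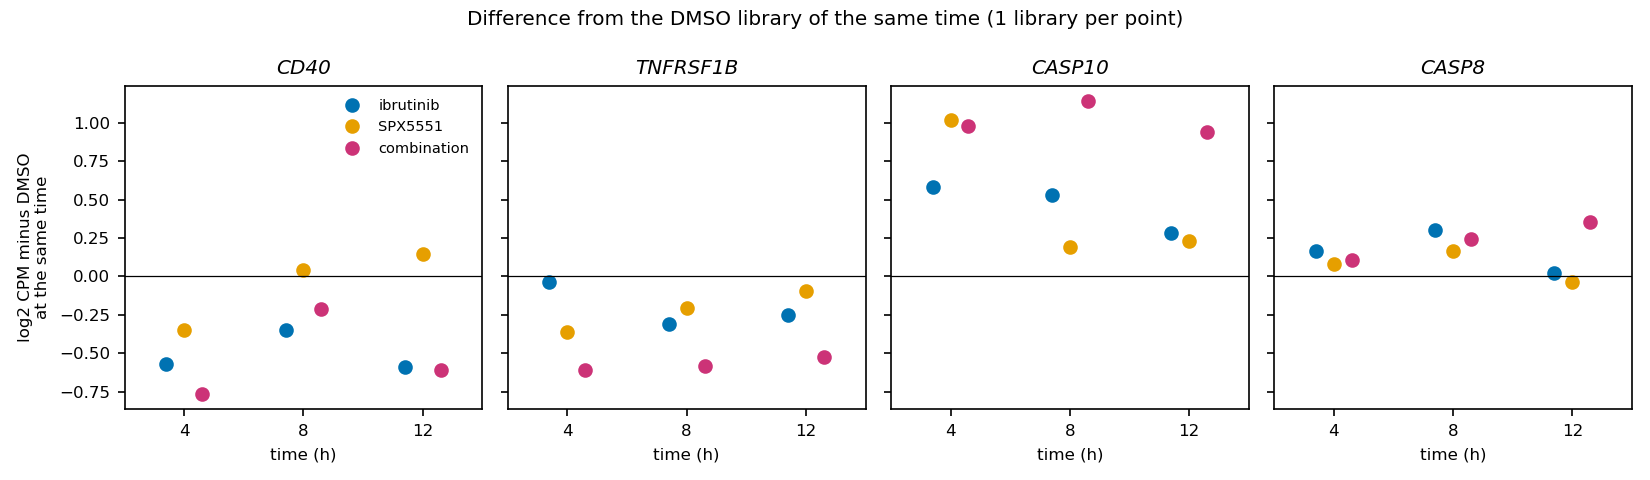
Log2 CPM of CD40, TNFRSF1B, CASP10 and CASP8 in the ibrutinib, SPX5551 and combination library minus that in the DMSO library of the same time (4, 8 or 12 h on the horizontal axis), 1 library per point. The combination points lie between -0.61 and -0.53 for TNFRSF1B and between 0.94 and 1.14 for CASP10, while those of CD40 range from -0.77 to -0.21.

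CASP8, the main initiator caspase of the death receptor route, differed little between treatments. Its DMSO libraries read 46.8 CPM at 4 h, 44.7 at 8 h and 54.8 at 12 h, and the ibrutinib libraries 52.6, 55.1 and 55.6 CPM in the same order. The SPX5551 libraries read 49.5, 50 and 53.4 CPM, and those of the combination 50.5, 53.0 and 69.9 CPM, where the 12 h library stood above all others. The combination versus DMSO difference was 0.16 with a 95% interval from -0.03 to 0.35 (adjusted p = 0.299, edgeR). CASP10 lies next to it: CFLAR, CASP10 and CASP8 follow each other on the + strand of chromosome 2 (CASP10 at 201182881 to 201229406 and CASP8 at 201233443 to 201287711, GENCODE release 29 on GRCh38), with gaps of 6193 and 4036 bases.

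Relative to CASP8, CASP10 had 6.75, 15.3 and 18.5 counts per 100 CASP8 counts with DMSO (4, 8 and 12 h) and 12.5, 28.8 and 27.9 with the combination. The single agents lay between, with 9.09, 18 and 22.2 in ibrutinib and 13.1, 15.6 and 22.3 in SPX5551, except that the 4 h SPX5551 library was above the 4 h combination library. CFLAR, which encodes the caspase-8 inhibitor c-FLIP, read 37.5, 31.3 and 38.2 CPM with DMSO (4, 8 and 12 h) and 24.6, 26.0 and 31.1 CPM with the combination, with no overlap. It fell by 0.47 ± 0.10 in log2 units (SE, n = 3 times; adjusted p = 0.00860, edgeR). Of these 3 neighbouring genes, CASP10 thus rose, CFLAR fell and CASP8 did not pass in the same libraries.

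FAS (CD95), the death receptor of FAS ligand, had low levels. DMSO libraries read 5.12 CPM at 4 h, 3.47 at 8 h and 6.98 at 12 h, and the ibrutinib libraries 3.34, 4.34 and 5.17 CPM in the same order. The SPX5551 libraries read 5.23, 7.14 and 8.00 CPM, and those of the combination 4.97, 5.15 and 7.0 CPM. SPX5551 was the highest of the 4 treatments at each time, but its values overlap those of the others. The SPX5551 exposure difference was 0.37 ± 0.12 on the log2 scale and did not pass (SE; adjusted p = 0.0680, edgeR); it passed without a filter on low counts (adjusted p = 0.0435, edgeR) and without the 4 h DMSO or the 4 h SPX5551 library (0.0488 and 0.0457). For ibrutinib exposure it was -0.31 ± 0.12 (adjusted p = 0.0915, edgeR), which passed without the 8 h DMSO library (0.0367).

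TNFRSF10B, the TRAIL receptor DR5, did not pass in any treatment comparison. Its 12 h libraries lay between 18.4 and 18.8 CPM in all 4 treatments, its 8 h libraries between 12.9 and 15.8 CPM and its 4 h libraries between 10.3 and 15.9 CPM. The combination versus DMSO difference was -0.23, with a 95% interval from -0.51 to 0.05. The 4 h combination library, at 10.3 CPM, was the lowest of the 12.

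The receptors for BAFF and APRIL did not pass in any treatment comparison. TNFRSF13B read 167, 273 and 226 CPM with DMSO (4, 8 and 12 h) and 191, 301 and 279 CPM with the combination, the highest treatment at each time. Its ibrutinib libraries read 187, 251 and 251 CPM and its SPX5551 libraries 185, 247 and 235 CPM. The combination versus DMSO difference was 0.13 with a 95% interval from -0.05 to 0.31. TNFRSF13C, the receptor that takes BAFF alone, read 42.0, 62.5 and 66.2 CPM with DMSO and 56.0, 67.2 and 69 CPM with the combination, a difference of 0.10 (-0.11 to 0.32). Its 4 h DMSO library was below the other 11 libraries, which lay at 56.0 CPM or above, including those of ibrutinib (57.5, 64.3 and 63.8 CPM) and SPX5551 (56.7, 58.9 and 68.1 CPM). The annotation places 615 exonic bases of TNFRSF13B on the same strand as TBC1D27P, a pseudogene with 125 to 239 CPM here, so reads could be divided between the 2 genes by the counting.

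TNFRSF17 (BCMA), a receptor of late B-cell and plasma cell stages, rested on 13 to 58 counts per library. Its DMSO libraries read 1.10 CPM at 4 h, 2.13 at 8 h and 1.28 at 12 h, and the ibrutinib libraries 0.882, 1.46 and 1.14 CPM in the same order. The SPX5551 libraries read 1.31, 2.18 and 1.24 CPM, and those of the combination 0.566, 1.69 and 1.15 CPM. Both ibrutinib-containing libraries were below both others at each time. The ibrutinib exposure difference was -0.48 ± 0.18 on the log2 scale and did not pass (SE; adjusted p = 0.0809, edgeR). At these counts a change of this size was not resolved: the combination versus DMSO interval ran from -1.05 to 0.05.

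CD27, the receptor of CD70 and a marker of memory B cells, was near the limit of detection. It had 0 to 9 counts per library, at most 0.368 CPM, and 0 counts in the 4 h SPX5551 and 4 h combination libraries. A count of 0 allows up to 3 counts, which is 0.104 to 0.155 CPM across the libraries. The annotation has 522 exonic bases of CD27 on the strand opposite CD27-AS1 (1.46 to 3.36 CPM), and no source used here states how strand was counted, so even these counts are uncertain. FAS shares 380 exonic bases with ACTA2 (0.248 to 1.01 CPM) and TNFRSF10B 67 with RHOBTB2 (4.87 to 12.5 CPM), both on the opposite strand. No fold change is given for CD27.

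More of these genes passed between times than in any treatment comparison. Between 4 h and 12 h, over all treatments, 7 of the 9 passed, 5 higher and 2 lower, beside 35.9% of all tested genes (18.4% higher and 17.5% lower). TNFRSF1B fell by 1.17 ± 0.09 in log2 units, from a mean of 49.3 ± 9.50 to 23.2 ± 3.56 CPM (SD, n = 4 treatments; adjusted p = 1.1e-06, edgeR). CASP10 rose by 1.29 ± 0.14, from 5.19 ± 1.55 to 13.5 ± 4.14 CPM (adjusted p = 2.1e-05, edgeR). CD40 fell by 0.68 ± 0.10, from 125 ± 29.4 to 83.6 ± 22.6 CPM (adjusted p = 0.000196, edgeR). The 3 genes thus moved with time in the direction in which they moved with the combination.

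TNFRSF13B rose by 0.35 ± 0.07, TNFRSF10B by 0.44 ± 0.11, FAS by 0.45 ± 0.15 and TNFRSF13C by 0.25 ± 0.09 on the log2 scale between 4 h and 12 h (adjusted p = 0.00217, 0.00755, 0.0316 and 0.0331, edgeR). All 4 libraries of 12 h were above all 4 of 4 h for TNFRSF13B, TNFRSF13C, TNFRSF10B, CASP8 and CASP10 and below them for TNFRSF1B, which is 6 of the 9 tested genes beside 23.6% of all tested genes (15.1% higher and 8.56% lower). CASP8 did not pass the test (0.14, adjusted p = 0.182, edgeR), nor did TNFRSF17 (0.26, adjusted p = 0.428, edgeR), whose 8 h libraries were the highest of each treatment. The FAS call did not pass without the 12 h DMSO, 4 h or 12 h ibrutinib, 4 h SPX5551, or 4 h or 12 h combination library (adjusted p from 0.0620 to 0.113, edgeR). The TNFRSF13C call did not pass without the 4 h or 12 h DMSO, the 12 h SPX5551, or the 4 h or 12 h combination library (0.0559 to 0.197), and that of TNFRSF10B without the 4 h combination library (0.0508). Without that 4 h combination library 4 of the 9 passed, and calls over all genes also fell, from 5167 to 3783. Time since treatment and time in culture or handling cannot be told apart.

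Across the 12 libraries, log2 CPM of TNFRSF1B and CASP10 varied in opposite directions (Pearson r = -0.96, n = 12 libraries), and CD40 varied with TNFRSF1B (0.83) and against CASP10 (-0.83). These are descriptions of libraries that share their times and treatments. Among 10113 tested genes with a mean log2 CPM of at least 2, the 2 most like CD40 were CD83 (r = 0.97) and RBFA (0.96). For TNFRSF1B they were CTSC (0.99) and CD82 (0.98), and for CASP10 DCAF11 (0.98) and ABTB1 (0.98).

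The ligands of the family held the largest falls around these receptors. Of 18 ligand genes 11 were tested, and in the combination versus DMSO none was higher, 4 were lower (beside 5.41% lower of all tested genes) and 7 did not pass, with a median log2 fold change of -0.54 beside 0.02 over all tested genes. TNF fell by 3.46 and LTA, the gene of lymphotoxin alpha, by 1.56; both also passed with ibrutinib alone (-2.28 and -0.96). TNFSF15, which encodes the ligand TL1A, read 8.78, 3.92 and 3.39 CPM with DMSO (4, 8 and 12 h) and 1.66, 1.04 and 1.31 CPM with the combination, with no overlap. It fell by 2.01 ± 0.21 in log2 units (SE, n = 3 times; adjusted p = 6.6e-05, edgeR). LTB, the gene of lymphotoxin beta, read 51.1, 57.5 and 54.7 CPM with DMSO and 39.9, 35.9 and 25.7 CPM with the combination, also without overlap, and fell by 0.75 ± 0.18 (adjusted p = 0.0144, edgeR). TNFSF15 also fell versus ibrutinib (-1.35) and versus SPX5551 (-1.44).

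TNF and LTA are ligands of TNFRSF1B, and their falls and that of the receptor stood in the same libraries. A link between these falls was not tested. The ligands of the other receptors were not called in the combination versus DMSO or were not tested. CD40LG and FASLG, the ligands of CD40 and FAS, had 0 counts in all 12 libraries. TNFSF13B (BAFF) had 0.305 to 0.931 CPM and TNFSF13 (APRIL) 0.789 to 2.58 CPM. CD70, the ligand of CD27, had 32.8 to 49.9 CPM. TNFSF10 (TRAIL), the ligand of TNFRSF10B, read 2.91, 3.52 and 4.31 CPM with DMSO and 3.75, 5.08 and 8.02 CPM with the combination. It was higher with ibrutinib over 6 versus 6 libraries (0.41 ± 0.12 on the log2 scale, SE; adjusted p = 0.0291, edgeR) and missed the threshold in the combination versus DMSO (0.54, adjusted p = 0.0507, edgeR).

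Other receptors of the family were largely untested or did not pass. Of 21 listed, 8 were tested and none was called in the combination versus DMSO, with a median of 0.01; over 6 versus 6 libraries TNFRSF21 (DR6) was lower with SPX5551 (-0.79 ± 0.20, SE; adjusted p = 0.0308, edgeR). TNFRSF1A, the TNF receptor with a death domain, had at most 3 counts and LTBR at most 1 count in a library, so that TNFRSF1B was the TNF receptor detected in these cells. RELT (107 to 139 CPM), TNFRSF14 (14.4 to 24.5 CPM) and TNFRSF10A, the other TRAIL receptor with a death domain (11.7 to 17.0 CPM), were detected throughout.

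**Figure D4:**
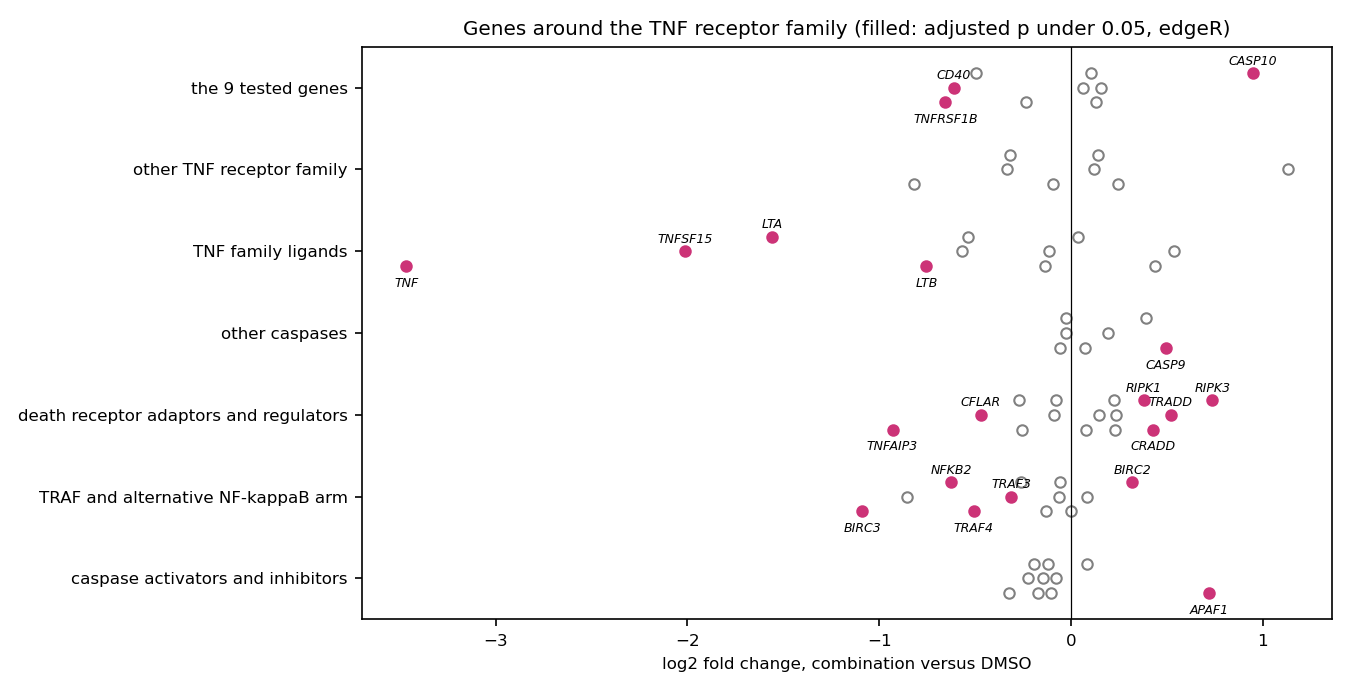
Log2 fold change in the combination versus DMSO (horizontal axis) of the 9 tested genes and of the tested members of 6 related gene lists, with 1 point per gene and filled points for an adjusted p under 0.05 (edgeR); vertical offsets within a list carry no meaning. TNF lies farthest to the left at -3.46, and the adaptors hold calls on either side of 0.

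Downstream of the receptors, calls fell on both sides. Among 15 tested adaptors and regulators of death receptor complexes, 4 were higher and 2 lower in the combination versus DMSO (beside 4.16% higher and 5.41% lower of all tested genes), with a median of 0.15. RIPK3, the kinase of necroptosis, rose by 0.74, the adaptor TRADD by 0.52, CRADD by 0.43 and RIPK1 by 0.38, while TNFAIP3 (A20), a feedback inhibitor of NF-kappaB, fell by 0.93 and CFLAR by 0.47. With ibrutinib over 6 versus 6 libraries 3 of the 15 were higher and 3 lower, beside 7.14% and 6.58% of all tested genes. RIPK1 (0.27) and 2 genes of linear ubiquitin control, the ligase subunit RNF31 (0.29) and the deubiquitinase OTULIN (0.20), were higher, and TNFAIP3 (-0.80), CFLAR (-0.28) and the adaptor FADD (-0.21) were lower. With SPX5551 over 6 versus 6 libraries 4 of the 15 were higher and 0 lower, beside 2.12% and 4.89% of all tested genes. Among the 4 was RBCK1, another subunit of that ligase (0.23, adjusted p = 0.0478, edgeR). Among 12 tested genes of the TRAF and alternative NF-kappaB arm, 1 was higher and 4 were lower in the combination versus DMSO, beside the same 4.16% and 5.41% (median -0.20). BIRC3 (cIAP2), which sits on TRAF2 at CD40 and TNFRSF1B, fell by 1.09, NFKB2 by 0.62, TRAF4 by 0.51 and TRAF3, a brake on the alternative arm, by 0.31. BIRC2 (cIAP1), the paralogue and neighbour of BIRC3, rose by 0.32. With ibrutinib over 6 versus 6 libraries TRAF1 (-0.92) and RELB (-0.46) were lower as well.

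Among 7 tested other caspases, CASP9 alone was called in the combination versus DMSO, beside 9.57% of all tested genes. It read 13.1, 19.8 and 19.1 CPM with DMSO (4, 8 and 12 h) and 21.0, 28.9 and 27.3 CPM with the combination, with no overlap, and rose by 0.49 ± 0.12 in log2 units (SE, n = 3 times; adjusted p = 0.0162, edgeR). APAF1, the scaffold on which caspase-9 is activated, read 11.7, 19.4 and 24.7 CPM with DMSO and 25.8, 29 and 40.4 CPM with the combination, also without overlap. It rose by 0.72 ± 0.14 (adjusted p = 0.00503, edgeR) and was the 1 call among 10 tested caspase activators and inhibitors, near that same 9.57%, with a median of -0.13. Over 6 versus 6 libraries CYCS, the gene of cytochrome c, was lower with ibrutinib (-0.25, adjusted p = 0.0357, edgeR) and BIRC6, an inhibitor of apoptosis, lower with SPX5551 (-0.46, adjusted p = 0.0308, edgeR). CASP6 was higher with SPX5551 over 6 versus 6 libraries (0.36 ± 0.09, adjusted p = 0.0274, edgeR), as was CASP9 (0.36 ± 0.08, adjusted p = 0.0209, edgeR).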

How the data were processed

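Poly(A) RNA of 12 REC1 libraries was sequenced after directional library preparation, per the labels' protocols; the label for the molecule says genomic DNA, against this protocol. BWA and hg38 were used, per the submitters' processing notes. For the counting tool, annotation and strand setting the entry is: not given in the sources used here. The authors deposited whole-number counts for 60483 Ensembl genes and log2 CPM for 14767 of them, with columns named by time and treatment, per the file headers.

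Symbols and positions came from GENCODE release 29, which named 93.8% of the identifiers. Counts were kept by filterByExpr grouped by treatment (14412 genes with 99.9% of counts), scaled by TMM and tested with edgeR 4.0.16 (R 4.3.3) by the quasi-likelihood F-test, with treatment and time as additive terms and Benjamini-Hochberg adjustment at 0.05 over all tested genes. A second model had time, ibrutinib exposure and SPX5551 exposure. SE was taken as the size of the log2 fold change over the root of the F statistic, and intervals are at 95%. CPM in the text is not scaled by TMM, and log2 CPM carries a prior count of 2. The common biological coefficient of variation was 0.101. Total counts of 19336303 to 28934030 make 3 counts worth 0.104 to 0.155 CPM; PCR copies were not marked, so such floors cover counting error only.

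The members and gene lists were chosen with earlier results of these data known. All 10 genes are described. A listed gene is named when it passed in ibrutinib versus DMSO, combination versus DMSO, combination versus SPX5551 or an exposure model, and for genes called in the combination versus DMSO the 2 tested genes with the highest correlation are named; ligands, receptors, caspases and cell type markers named for their level or for not passing fall outside this rule and were chosen after their values were seen. Alternatives were DESeq2 1.42.0, limma 3.58.1 (voom, and trend on the deposited log2 CPM), other scalings, no filter, no time term, fewer libraries, the columns named in the descriptions, and removal of the length trend. In data simulated for the combination versus DMSO with 14412 genes, 46 of 100 changes of 0.5 and 89 of 100 changes of 1 on the log2 scale were recovered, with 7 false calls. The simulation gave every gene the same biological coefficient of variation and no change with time, so these rates cannot be carried over to the real libraries.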

Additional observations from a re-analysis of the deposited data

Results flagged for a closer look

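CASP8 had 69.9 CPM in the 12 h combination library, while the nearest of the other 5 libraries with ibrutinib had 55.6 CPM. The gap was 0.740 of the range of the 6 libraries, above Dixon's 95% limit for a group of 6. Such a limit is passed by chance in about 1 of 20 groups, and 20 sets of libraries were examined.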

How the results depend on the processing

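In 26 alternatives, 737 values of 30 single-gene results were recomputed, of which 631 kept their direction and side of the threshold, 68 no longer passed, 20 newly passed and 18 changed sign. All 18 came from assigning columns by the descriptions. With that assignment the log2 values of CASP10 were -0.51 (combination versus DMSO), -0.95 (ibrutinib versus DMSO), -0.53 (SPX5551 versus DMSO), -0.46 (ibrutinib exposure) and -0.069 (SPX5551 exposure). Those of TNFRSF1B were 0.42, 0.66, 0.42, 0.32 and 0.093 in the same order. CD40 was at 0.54 (combination versus DMSO), 0.48 (combination versus SPX5551), 0.61 (ibrutinib versus DMSO) and 0.54 (ibrutinib exposure), FAS at -0.36 (SPX5551 versus DMSO) and 0.31 (ibrutinib exposure), and TNFRSF17 at 0.46 (combination versus SPX5551) and 0.48 (ibrutinib exposure). By construction of the swap, 3 of the 9 passed in ibrutinib versus DMSO (beside 9.57% of all tested genes) and 1 in SPX5551 versus DMSO (5.49%). In the combination versus ibrutinib 0 passed (0%). The interaction then had 2 of the 9, ibrutinib exposure 1 (CD40) and SPX5551 exposure 0, for which shares over all genes are not given here.

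The model pairs libraries by time. With no replicate block (no time term) 0 of the 9 passed in the combination versus DMSO, versus ibrutinib and versus SPX5551 and in both exposure models, with 27 genes of all called in the combination versus DMSO in place of 1379. In the combination versus ibrutinib CASP10 passed beside TNFRSF1B with DESeq2, with no filter, with only the 6 libraries compared and with the length trend removed. In the combination versus SPX5551 CD40 passed and TNFRSF1B did not with only the 6 libraries compared. In ibrutinib versus DMSO CD40 (lower) passed with DESeq2, with no filter and with only the 6 libraries compared. CD40 also passed there with the 8 h ibrutinib library and the 12 h SPX5551 library left out. Without this pair CD40 alone of the 9 passed for ibrutinib exposure. Calls over all genes in these fits are not given here. Where no value shows the cause, the cause was not tested.

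Leaving out 1 library or 1 time gave 2 to 3 called genes among the 9 for the combination versus DMSO, 0 to 2 versus ibrutinib, 0 to 3 versus SPX5551, 1 to 4 for ibrutinib exposure, 0 to 3 for SPX5551 exposure, 0 to 1 for ibrutinib versus DMSO, and 0 for SPX5551 versus DMSO and for the interaction; leaving out 1 library gave 4 to 7 for 12 h versus 4 h. Over all genes, such fits gave 278 to 1671 calls for the combination versus DMSO, 2 to 1643 versus ibrutinib and 129 to 1302 versus SPX5551. They gave 83 to 2637 for ibrutinib exposure and 0 to 1807 for SPX5551 exposure. For ibrutinib versus DMSO they gave 0 to 670, for SPX5551 versus DMSO 0 to 1 and for the interaction 0 to 109. For 12 h versus 4 h, leaving out 1 library gave 3517 to 5510. TNFRSF17 and CD27 are limited by depth.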
